A study of Mus musculus with 9 samples.

Results

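The genes that carry glucose through glycolysis, the pentose phosphate pathway and pyruvate metabolism were followed in macrophages sorted from the inflamed colon, and none of those measured was called higher or lower in macrophages of mice with a myeloid deletion of Arnt. They were chosen by name, as 40 genes of these pathways, and 36 of the 40 had a probe set annotated to that symbol alone, among 22180 genes of this kind and 34365 probe sets in all. Where a gene had several such probe sets, the brightest by the mean of the 9 arrays stood for it. The other 4, Pfkfb1, Mpc2 and Tkt among them, were not analysed here, apart from a probe set annotated to Tkt together with Mir3076.

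The mutant mice were 4 LysMCre;Arntfl/fl animals, in which Cre under control of the lysozyme M locus recombines the floxed Arnt alleles in myeloid cells, and the controls were 5 LysMCre animals that carry the same Cre with intact Arnt alleles. All were on a C57BL/6 background after backcrossing. The paper states that the floxed Arnt mice came from a mix of C57BL/6 with another strain, and gives no number of backcrosses. Both genotypes were kept in the same cages, and the sources used here give neither age nor sex. All mice had colitis from dextran sulfate sodium (DSS, a polymer that injures the colonic epithelium), which they drank at 3% over 5 days before 3 days on plain water. Macrophages of the lamina propria (CD45+ CD11b+ F4/80+) were sorted on Day 8, and the RNA of 1 mouse was hybridized to 1 Affymetrix mouse gene array. Values are on the log2 scale after RMA normalization, so a difference of 1 is 2-fold, and a log2 fold change above 0 means more signal in LysMCre;Arntfl/fl than in LysMCre. LysM-driven Cre also acts in neutrophils, and it deletes less completely in monocytes than in mature macrophages. Each array came from a separate mouse, so p-values measure the spread between mice.

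Glycolysis splits glucose into pyruvate, and its enzymes are among the best known targets of the hypoxia-inducible factors (HIFs), dimers of an oxygen-regulated alpha subunit with ARNT. In activated macrophages glycolysis is known to run fast even where oxygen is present, the pentose phosphate pathway supplies NADPH and ribose, and pyruvate either leaves the cell as lactate or enters the mitochondria through the pyruvate dehydrogenase complex. The pyruvate dehydrogenase kinases close that last gate, and phosphofructokinase, pushed by the fructose 2,6-bisphosphate that the PFKFB enzymes make, sets the pace of the upper part.

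HIF dimers are known to bind a short core, written ACGTG or GCGTG, so the promoters of the genes were searched for these letters on both strands (CACGT and CACGC on the printed strand). Each window held 300 bases of the RefSeq sequence of GRCm38.p6, 250 before a start site and 50 after it, and 35 of the 36 measured genes matched at least 1 of 50 windows (Slc2a3 is the other). A core stood in 39 of the 50 windows (78%), against 43.8% of all 32851 windows of the same length, and at least 2 cores in 48%, against 20.6%. The windows of these genes were also richer in G and C (median 60.7%, against 52.7%), and both cores contain a CG. Shown here are the stretches of the transporter, the first kinase, a mid-pathway enzyme and lactate dehydrogenase with the most cores, in capitals, and the stretch of Eno2, the gene with the smallest adjusted p, where none of 80 bases belonged to a core:
Slc2a1 (chr4:119108652-119108731, plus strand, 93 to 14 bases before the start): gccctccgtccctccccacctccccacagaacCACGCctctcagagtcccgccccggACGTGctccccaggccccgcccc
Hk2 (chr6:82774486-82774565, minus strand, 111 to 32 bases before the start): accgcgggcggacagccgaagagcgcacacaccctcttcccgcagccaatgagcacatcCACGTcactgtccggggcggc
Pgk1 (chrX:106186922-106187001, plus strand, 178 to 99 bases before the start): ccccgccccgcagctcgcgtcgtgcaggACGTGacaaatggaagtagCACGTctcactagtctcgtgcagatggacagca
Ldha (chr7:46845712-46845791, plus strand, 92 to 13 bases before the start): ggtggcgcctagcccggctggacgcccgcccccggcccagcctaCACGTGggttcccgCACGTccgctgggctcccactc
Eno2 (chr6:124769674-124769753, minus strand, 80 to 1 bases before the start): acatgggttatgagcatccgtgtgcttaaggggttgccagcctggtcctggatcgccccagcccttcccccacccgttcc
The capitals CACGTG in Ldha read as a core on both strands and were counted as 2 matches. Of the 35 genes, 32 had a core in at least 1 window, and Eno2, Fbp1 and Tpi1 had none. A match is a run of letters and not a measured binding site, and its absence from a window says nothing about binding elsewhere.

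The deletion showed in the arrays. Arnt had 8.77, 8.60, 8.84 and 8.70 in the 4 LysMCre;Arntfl/fl arrays and 9.54, 9.44, 9.36, 9.31 and 9.31 in the 5 LysMCre arrays. The groups did not overlap, and Arnt was called lower (log2 fold change -0.66, 95% interval -0.85 to -0.48, adjusted p = 0.0214, from limma). Its value ranged from -0.70 to -0.60 over all alternative fits, while the call was lost in 5 of the 9 fits that left out 1 array, with the methods' t-test (adjusted p = 0.107), with the replicate number as a block (0.138) and with the mean of neutrophil markers as a covariate (0.419). All 14 measured macrophage markers (Adgre1, Csf1r, Mertk and others) lay above the median of the array on each of the 9 arrays, but so did 6 of 6 monocyte, 10 of 10 stromal and endothelial, 7 of 8 lymphocyte, 14 of 19 neutrophil, 9 of 15 epithelial and 1 of 5 eosinophil markers, so this level does not tell the cell types apart. Markers of several cell types differed in level between the genotypes, with few calls. Of 19 neutrophil markers, 18 had a positive log2 fold change (median 1.15), 14 were higher at an unadjusted limma p below 0.05, and 1, the granule gene Ngp, was called higher (log2 fold change 3.45, adjusted p = 0.0330). Their mean per array was 9.34 to 9.94 in LysMCre;Arntfl/fl and 8.06 to 9.18 in LysMCre, without overlap. Of the granule genes that immature neutrophils make, Ngp, Ltf, Lcn2 and Mmp8 lay above the median of the array on all 9 arrays. Camp did so on 5, Elane and Prtn3 on 4 each and Mpo on 0. Lcn2 and Mmp8 were higher without overlap (log2 fold changes 2.19 and 2.09). Of the 14 macrophage markers, 9 had a negative log2 fold change (median -0.16) and 0 were called by limma. At an unadjusted p below 0.05, 5 were lower (Cx3cr1 at -0.83 without overlap, C1qa, C1qb, C1qc and Mrc1) and 2 higher (Itgam at 0.44 without overlap, and Lyz2). Cd14 (0.12) was also higher without overlap, though not at that threshold. At the same unadjusted threshold the endothelial markers Cdh5, Kdr and Vwf were higher (0.79, 0.74 and 0.57 on the log2 fold change scale). The stromal markers Col1a1 and Lum were lower (-0.57 and -0.99). So were the goblet cell genes Muc2 and Agr2 (-1.44 and -1.79), though 10 of 15 epithelial markers had a positive value (median 0.29). The monocyte marker F13a1 was higher (0.86). The monocyte marker Ccr2 (-0.52), the lymphocyte marker Cd4 (-0.59) and the eosinophil marker Siglecf (-0.24) were lower. All of these endothelial, stromal, goblet cell, monocyte, lymphocyte and eosinophil markers overlapped, and none was called. In sorted cell populations measured in bulk, a larger number of cells of one type and more RNA per cell cannot be told apart. The mean of 15 epithelial markers spread widely in both genotypes, with 8.12 to 8.98 in LysMCre;Arntfl/fl and 7.15 to 9.78 in LysMCre.

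Over the whole set the genes were split evenly in sign. Of the 36 genes, 18 had a negative log2 fold change (50%, against 48.2% of all probe sets), and the median was 0.00, against 0.01 over all probe sets. A call needed both an adjusted p under 0.05 and more than a 1.5-fold difference. By this rule 0 of 36 genes were called higher (0.143% of all probe sets were) and 0 lower (0.151%), and the SAM-type score and the methods' t-test called 0 as well. Without the fold threshold 1 gene, Eno2, was higher (2.78%, against 0.16% of all probe sets) and 0 were lower (0.178% of all probe sets). At an unadjusted limma p below 0.05 there were 5 higher genes (Pfkfb2, Eno2, Pkm, Pcx and Pgd), which is 13.9% against 5.72%, and 5 lower ones (Slc2a1, Hk2, Aldoc, Pdk3 and Pdha1), which is again 13.9%, against 5.79%. Among the 22180 genes with 1 symbol, each by its brightest probe set, these shares were 6.74% higher and 6.69% lower. Beyond 1.5-fold lay 2 higher genes (Slc2a3 and Pdk4, 5.56% against 1.09%) and 0 lower genes (1.53% of all probe sets). The arrays of the genotypes did not overlap for 2 higher genes (Eno2 and Pkm, 5.56% against 2.52%) and 1 lower gene (Aldoc, 2.78% against 2.22%). Of the 22180 genes with 1 symbol, 675 were higher and 569 lower without overlap. For 28 of the 36 genes the 95% interval excluded a change of 1.5-fold in either direction, and for the remaining 8 it did not.

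**Figure D1:**
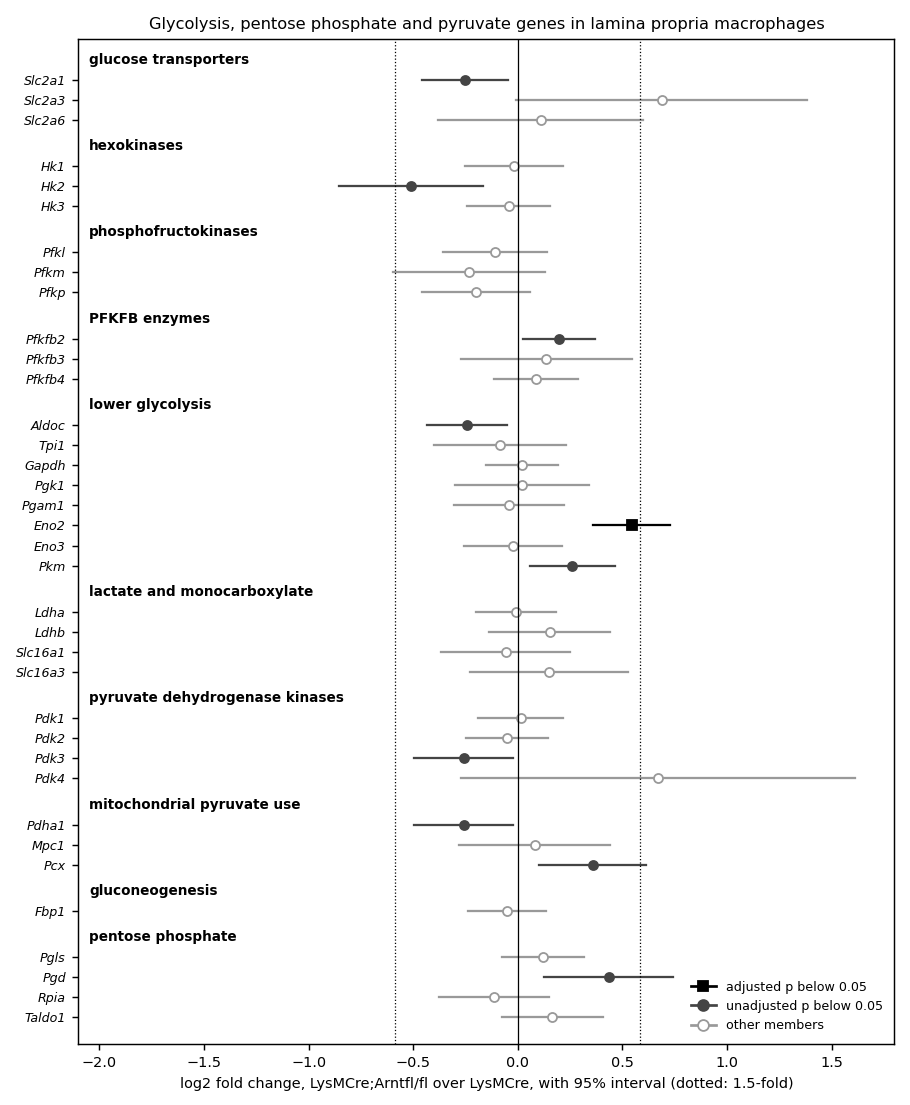
Log2 fold change of LysMCre;Arntfl/fl (n = 4) over LysMCre (n = 5) for the 36 genes by pathway step, with 95% intervals from limma; dotted lines mark 1.5-fold. Eno2 is the only square (adjusted p below 0.05), at 0.54, and the intervals of Slc2a3 and Pdk4 are the widest.

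Glucose entry differed in sign between transporters, and no transporter passed the test. Slc2a1, which encodes GLUT1, the transporter that macrophages use most when activated, had 11.26, 11.09, 11.23 and 11.35 in LysMCre;Arntfl/fl and 11.64, 11.36, 11.33, 11.56 and 11.53 in LysMCre. All LysMCre;Arntfl/fl arrays but replicate 4 lay below all LysMCre arrays, so the groups overlapped by that array (log2 fold change -0.25, 95% interval -0.46 to -0.05, adjusted p = 0.309). A dimmer Slc2a1 probe set, below the median of every array, was at -0.06 (adjusted p = 0.897). Slc2a3, which encodes GLUT3, a transporter of high affinity, went the other way, with 7.84, 7.36, 8.47 and 8.36 in LysMCre;Arntfl/fl and 7.03, 6.63, 7.03, 8.01 and 7.91 in LysMCre. The groups overlapped widely (log2 fold change 0.69, 95% interval -0.01 to 1.38, adjusted p = 0.442, 1.61-fold). The LysMCre arrays with the most Slc2a3, replicates 4 and 5, were also those with the highest mean of neutrophil markers in that genotype, and Slc2a3 had a log2 fold change of -0.80 once that mean entered the fit as a covariate. The covariate does not overlap between genotypes, so the fit reaches beyond the arrays of either, and what part of the difference belongs to it was not tested. Slc2a6, which encodes GLUT6 of the lysosomal membrane in macrophages, had 9.998 ± 0.505 in LysMCre;Arntfl/fl (SD, n = 4) and 9.889 ± 0.279 in LysMCre (SD, n = 5), with adjusted p = 0.912.

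Of the hexokinases, which trap glucose in the cell as glucose 6-phosphate, Hk2 had the most negative value of all 36 genes. Hk2, the inducible form bound to mitochondria, had 9.38, 8.49, 8.88 and 8.996 in LysMCre;Arntfl/fl and 9.53, 9.64, 9.34, 9.38 and 9.33 in LysMCre. In LysMCre;Arntfl/fl, 3 of 4 arrays were below every LysMCre array, and replicate 1 lay among them (log2 fold change -0.51, 95% interval -0.86 to -0.17, adjusted p = 0.208, 0.702-fold). Hk2 did not pass the adjustment over all probe sets, and the log2 fold change ranged from -0.66 without LysMCre;Arntfl/fl replicate 1 to -0.36 without LysMCre;Arntfl/fl replicate 2, with adjusted p between 0.0733 and 0.375 over the 9 fits that left out 1 array. The widely expressed Hk1 (log2 fold change -0.02, 95% interval -0.25 to 0.22, adjusted p = 0.975) and Hk3, a form of myeloid cells (log2 fold change -0.04, 95% interval -0.24 to 0.16, adjusted p = 0.912), had values near 0. The probe set that Hk1 shares with Hk1os was at 0.05 on the log2 fold change scale (adjusted p = 0.909).

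The phosphofructokinases, the committing step, had small negative values, and the PFKFB enzymes that stimulate them small positive ones. Pfkl, the liver form, was at -0.11, Pfkp, the platelet form, at -0.20 and Pfkm, the muscle form, at -0.23 on the log2 fold change scale, each short of the test (adjusted p = 0.793, 0.575 and 0.661 in that order). Pfkm lay below the median of the array on all 9 arrays, so its value rests on a dim signal. Pfkfb3, the isoform that pushes glycolysis hardest and is induced by hypoxia, had 9.49, 9.03, 9.87 and 9.95 in LysMCre;Arntfl/fl and 9.41, 9.75, 9.23, 9.57 and 9.29 in LysMCre. The 4 LysMCre;Arntfl/fl values enclosed the 5 LysMCre values (log2 fold change 0.14, 95% interval -0.27 to 0.54, adjusted p = 0.855). Pfkfb2 was more even within each genotype, with 7.25, 7.40, 7.40 and 7.45 in LysMCre;Arntfl/fl and 7.15, 7.16, 7.26, 7.21 and 7.08 in LysMCre. Only LysMCre;Arntfl/fl replicate 1 lay among the LysMCre arrays (log2 fold change 0.20, 95% interval 0.02 to 0.37, adjusted p = 0.355). Pfkfb4, a further isoform induced by hypoxia, had 6.82 ± 0.16 in LysMCre;Arntfl/fl (SD, n = 4) and 6.74 ± 0.07 in LysMCre (SD, n = 5), with adjusted p = 0.794.

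The lower part of glycolysis held the only gene that passed the adjusted test, Eno2, beside several whose values matched closely between genotypes. Eno2, an enolase best known from neurons that hypoxia also induces in other cells, had 7.66, 7.54, 7.62 and 7.52 in LysMCre;Arntfl/fl and 7.04, 7.05, 7.08, 7.17 and 6.87 in LysMCre. Every LysMCre;Arntfl/fl array was above every LysMCre array, and the gap between the groups was wider than the range within either (log2 fold change 0.54, 95% interval 0.36 to 0.73, adjusted p = 0.0330). At 1.46-fold Eno2 stayed under the fold threshold. Eno2 kept an adjusted p below 0.05 in 1 of the 9 fits that left out 1 array, the one without LysMCre replicate 4 (0.0288), and reached 0.110 without LysMCre;Arntfl/fl replicate 4, while its log2 fold change stayed between 0.50 and 0.58. With the neutrophil marker mean as a covariate it was 0.53 (adjusted p = 0.493), and with the methods' t-test the adjusted p was 0.126. The adjusted p of Eno2 was also above 0.05 with the replicate number as a block. It stayed below 0.05 with the SAM-type score, with array weights and with the mean of epithelial markers as a covariate (0.0376).

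Pkm, the pyruvate kinase gene whose M2 product is abundant in activated macrophages, had 10.99, 11.34, 11.10 and 11.18 in LysMCre;Arntfl/fl and 10.95, 10.86, 10.76, 10.93 and 10.96 in LysMCre. The lowest LysMCre;Arntfl/fl array, replicate 1, was just above the highest LysMCre array, so the groups did not overlap (log2 fold change 0.26, 95% interval 0.06 to 0.46, adjusted p = 0.289, 1.20-fold), yet Pkm did not pass. The array gave 1 value for Pkm, which does not separate its M1 and M2 transcripts. Aldoc, the aldolase of brain that hypoxia induces in other cells, had 6.70, 6.65, 6.70 and 6.75 in LysMCre;Arntfl/fl and 6.99, 6.80, 6.90, 6.87 and 7.15 in LysMCre. It was lower in every LysMCre;Arntfl/fl array than in any LysMCre array, by a small margin (log2 fold change -0.24, 95% interval -0.44 to -0.05, adjusted p = 0.292, 0.845-fold).

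Gapdh and Pgk1, which encode consecutive enzymes in the middle of the pathway, had log2 fold changes close to 0. Gapdh had 12.29, 12.50, 12.32 and 12.30 in LysMCre;Arntfl/fl and 12.37, 12.31, 12.26, 12.39 and 12.34 in LysMCre. The 9 values lay within a narrow band, with LysMCre;Arntfl/fl replicate 2 above the others (log2 fold change 0.02, 95% interval -0.15 to 0.19, adjusted p = 0.962), and 2 further Gapdh probe sets had log2 fold changes of 0.02 each. Pgk1, whose promoter stretch with 2 cores is printed above, had 9.83, 9.87, 9.72 and 9.67 in LysMCre;Arntfl/fl and 9.57, 9.35, 9.74, 9.98 and 10.12 in LysMCre. The LysMCre arrays spread on both sides of the LysMCre;Arntfl/fl arrays (log2 fold change 0.02, 95% interval -0.30 to 0.34, adjusted p = 0.979). As a ratio of LysMCre;Arntfl/fl over LysMCre, the interval runs from 0.812 to 1.27. Tpi1 (-0.09), Pgam1 (-0.04) and Eno3 (-0.02), which encode the triose isomerase, a phosphoglycerate mutase and the enolase of muscle, had adjusted p between 0.886 and 0.964. A dimmer Pgam1 probe set was at 0.07 (adjusted p = 0.918). The main aldolase, enolase and glucose phosphate isomerase genes (Aldoa, Eno1 and Gpi1), which were not among the 40, were not analysed here.

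**Figure D2:**
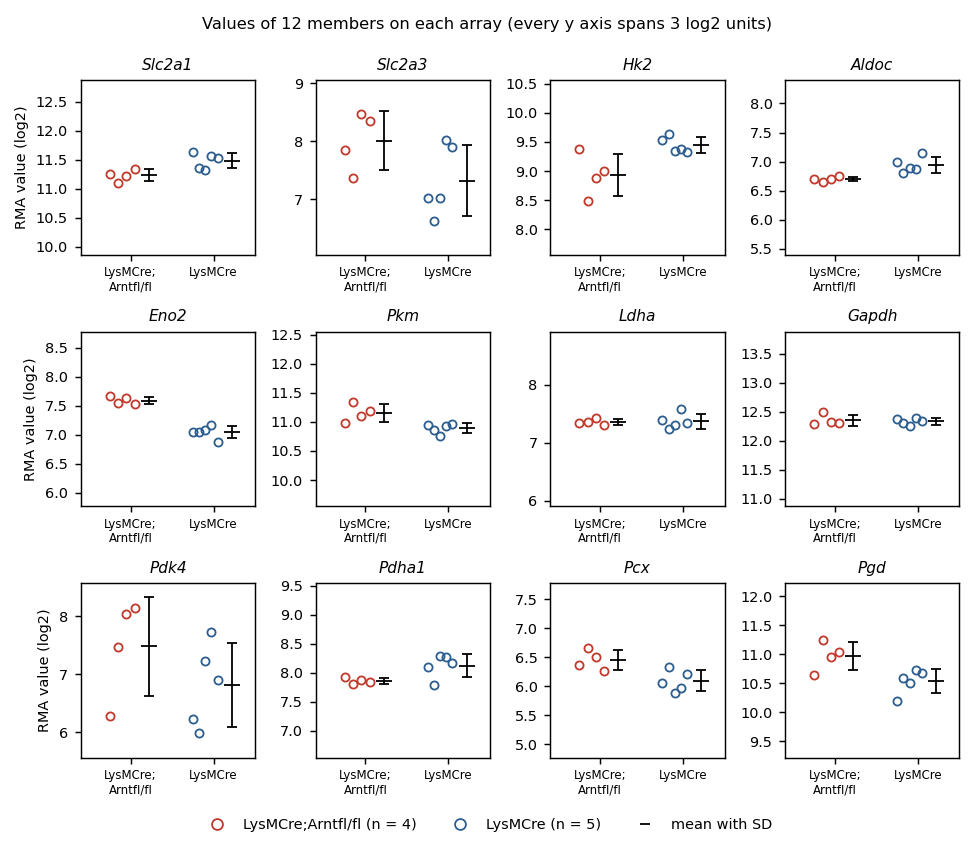
RMA values (log2, y axis) of 12 of the 36 genes on the 4 LysMCre;Arntfl/fl arrays (left, red) and the 5 LysMCre arrays (right, blue), with the mean and SD in black and the same span on every y axis. Eno2 and Pkm are higher and Aldoc is lower without overlap, Ldha and Gapdh are level, and Pdk4 and Slc2a3 spread most.

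Lactate production and export gave 4 genes with no call and 95% intervals that excluded 1.5-fold in both directions. Ldha, which encodes the subunit that favours lactate formation and is a classical HIF target, had 7.33, 7.36, 7.42 and 7.31 in LysMCre;Arntfl/fl and 7.38, 7.23, 7.30, 7.58 and 7.35 in LysMCre. The LysMCre;Arntfl/fl values fell inside the LysMCre range (log2 fold change -0.01, 95% interval -0.20 to 0.18, adjusted p = 0.984, a ratio of 0.993), and its promoter stretch held the most cores of those printed. Ldhb, the subunit that favours pyruvate, was at 0.15 on the same scale (adjusted p = 0.742). Slc16a1, which encodes the monocarboxylate transporter MCT1, was at -0.06 (adjusted p = 0.926) and Slc16a3, which encodes MCT4, the exporter of highly glycolytic cells, at 0.15 (adjusted p = 0.822). A probe set annotated to both Csnk1d and Slc16a3 was 0.17 higher on the log2 scale with no overlap (adjusted p = 0.400), and cannot be assigned to either gene.

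The pyruvate dehydrogenase kinases, which turn the complex off, did not move together. Pdk1, the kinase most tied to HIF, had 6.11, 6.09, 5.79 and 6.00 in LysMCre;Arntfl/fl and 6.10, 5.96, 5.91, 5.90 and 6.05 in LysMCre. Its values overlapped completely (log2 fold change 0.01, 95% interval -0.19 to 0.21, adjusted p = 0.980) and were close to the median of the arrays, above it on 4 of 9. A dimmer Pdk1 probe set, below the median of every array, was at 0.10 (adjusted p = 0.823). Pdk3 had 9.04, 8.69, 8.67 and 8.81 in LysMCre;Arntfl/fl and 9.15, 9.02, 8.95, 8.93 and 9.26 in LysMCre. Replicate 1 of LysMCre;Arntfl/fl alone reached into the LysMCre range (log2 fold change -0.26, 95% interval -0.49 to -0.02, adjusted p = 0.378). Pdk4, the kinase of fasting and fatty acid use, had 6.28, 7.47, 8.03 and 8.15 in LysMCre;Arntfl/fl and 6.22, 5.98, 7.23, 7.73 and 6.89 in LysMCre. It varied most among all 36 genes (pooled SD 0.78, against a median of 0.16 over the 36) and its high arrays came from both genotypes (log2 fold change 0.67, 95% interval -0.27 to 1.61, adjusted p = 0.614, 1.59-fold). Without its lowest LysMCre;Arntfl/fl array, replicate 1, the log2 fold change was 1.07, and without replicate 4 it was 0.45. With the neutrophil marker mean as a covariate it was -0.79. Pdk2 was at -0.05 (adjusted p = 0.887).

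Among the genes of mitochondrial pyruvate use, the dehydrogenase subunit and the carboxylase had opposite signs. Pdha1, which encodes the catalytic alpha subunit of pyruvate dehydrogenase, had 7.94, 7.82, 7.87 and 7.84 in LysMCre;Arntfl/fl and 8.10, 7.79, 8.28, 8.28 and 8.17 in LysMCre. The LysMCre;Arntfl/fl arrays were tightly grouped below the LysMCre arrays apart from LysMCre replicate 2 (log2 fold change -0.26, 95% interval -0.50 to -0.02, adjusted p = 0.380). Pcx, pyruvate carboxylase, which refills the citric acid cycle with oxaloacetate, had 6.37, 6.66, 6.51 and 6.27 in LysMCre;Arntfl/fl and 6.05, 6.33, 5.88, 5.98 and 6.21 in LysMCre. The overlap came from the highest LysMCre array, replicate 2, and the lowest LysMCre;Arntfl/fl array, replicate 4 (log2 fold change 0.36, 95% interval 0.10 to 0.62, adjusted p = 0.234, 1.28-fold). Pcx was close to the median of the arrays, above it on 7 of 9, so its value rests on a dim signal. Neither Pdha1 nor Pcx passed the adjusted test. On the log2 fold change scale Mpc1, a subunit of the mitochondrial pyruvate carrier, was at 0.08 (adjusted p = 0.911), and Fbp1, which runs the phosphofructokinase step backwards, at -0.05 (adjusted p = 0.885) at a level below the median of every array. A dimmer Mpc1 probe set was at -0.04 (adjusted p = 0.927).

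In the pentose phosphate pathway the oxidative enzyme gene Pgd had the largest value, without a call. Pgd, 6-phosphogluconate dehydrogenase, which yields NADPH, had 10.65, 11.24, 10.95 and 11.04 in LysMCre;Arntfl/fl and 10.20, 10.59, 10.50, 10.73 and 10.67 in LysMCre. The lowest LysMCre;Arntfl/fl array, replicate 1, lay below the highest LysMCre arrays, and the other 3 lay above all of them (log2 fold change 0.43, 95% interval 0.13 to 0.74, adjusted p = 0.228, 1.35-fold). Taldo1, transaldolase of the branch that returns sugars to glycolysis, had 10.44 ± 0.04 in LysMCre;Arntfl/fl (SD, n = 4) and 10.27 ± 0.21 in LysMCre (SD, n = 5), with adjusted p = 0.637. Pgls, which encodes the lactonase of the oxidative branch, was at 0.12 (adjusted p = 0.688), but a dimmer Pgls probe set was at -0.22 (adjusted p = 0.505), and Rpia, ribose 5-phosphate isomerase, was at -0.11 (adjusted p = 0.799). The shared probe set of Tkt, transketolase, and Mir3076 was at -0.10 (adjusted p = 0.716).

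**Figure D3:**
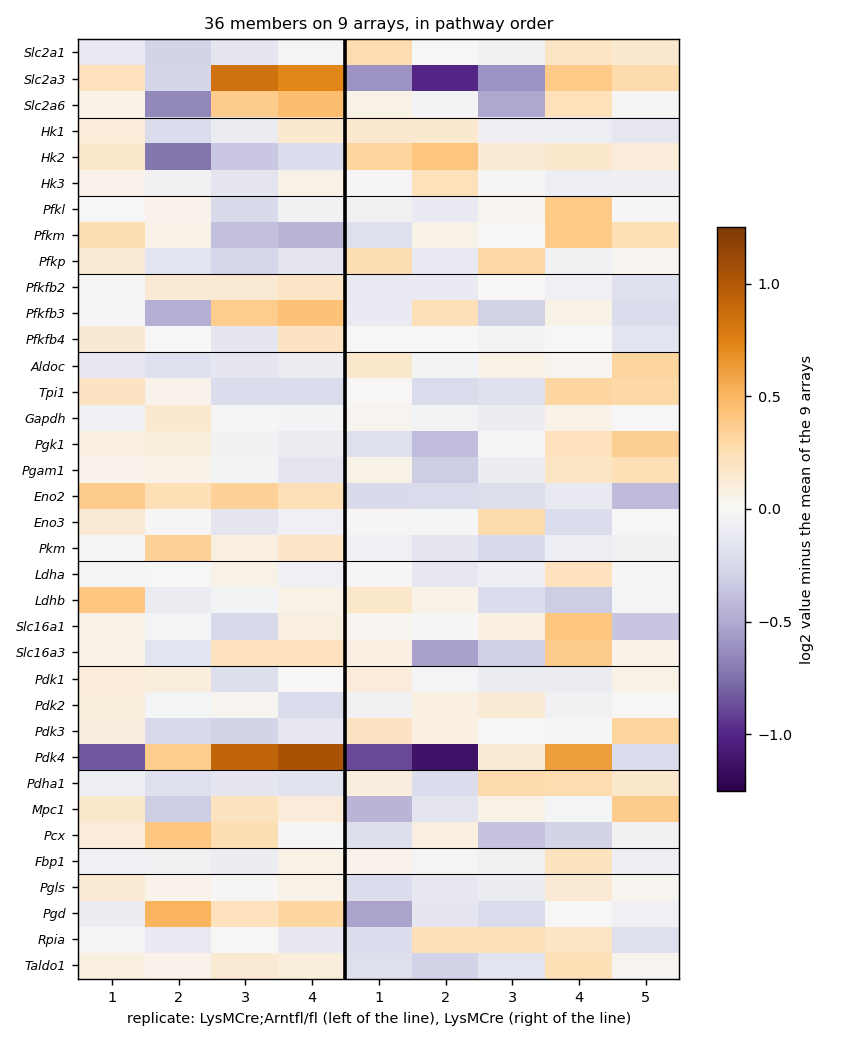
Deviation of each array from the mean of the 9 arrays (log2, colour) for the 36 genes in pathway order, with LysMCre;Arntfl/fl arrays left and LysMCre arrays right of the thick line. Slc2a3 and Pdk4 carry the strongest colours in both genotypes, and Eno2 is the row that splits most cleanly at the line.

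The arrays of 1 genotype differed from each other as well as from the other genotype. The mean over the 36 genes was 8.20 to 8.32 in LysMCre;Arntfl/fl and 8.14 to 8.35 in LysMCre, so the LysMCre range enclosed the other. LysMCre replicate 4 held the highest value of the 9 arrays in 8 genes, and LysMCre replicate 2 the lowest in 9. After Pdk4 and Slc2a3, the genes that spread most within genotypes were Slc2a6, Pfkfb3 and Slc16a3, with pooled SDs of 0.39, 0.32 and 0.29. This spread bears on how small a change the test could detect in each gene. The median pooled SD of the 36 genes, 0.16, was close to the 0.17 of all genes with 1 symbol.

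The neutrophil marker mean changed the values of several genes when it was added to the fit. With the mean of the 19 markers as a covariate, 23 of the 36 genes had a negative log2 fold change and the median became -0.19, and 15 genes changed sign, among them Slc2a3, Pdk4, Slc2a6 (-0.59), Slc16a3 (-0.55) and Pgk1 (-0.37). Eno2 (0.53), Hk2 (-0.41), Slc2a1 (-0.44), Aldoc (-0.34) and Pcx (0.47) kept theirs. No gene was called in that fit, and the median standard error was 0.20, against 0.11 without the covariate. An unadjusted limma p below 0.05 was found for 5 genes, Slc2a1, Slc2a3, Slc16a3 and Pdha1 with negative values and Eno2 with a positive one. This count was not set against the share of all probe sets in that fit, so it is not read as a result about these genes. Marker level and genotype cannot be told apart in these arrays, since the marker means of the genotypes do not overlap.

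**Figure D4:**
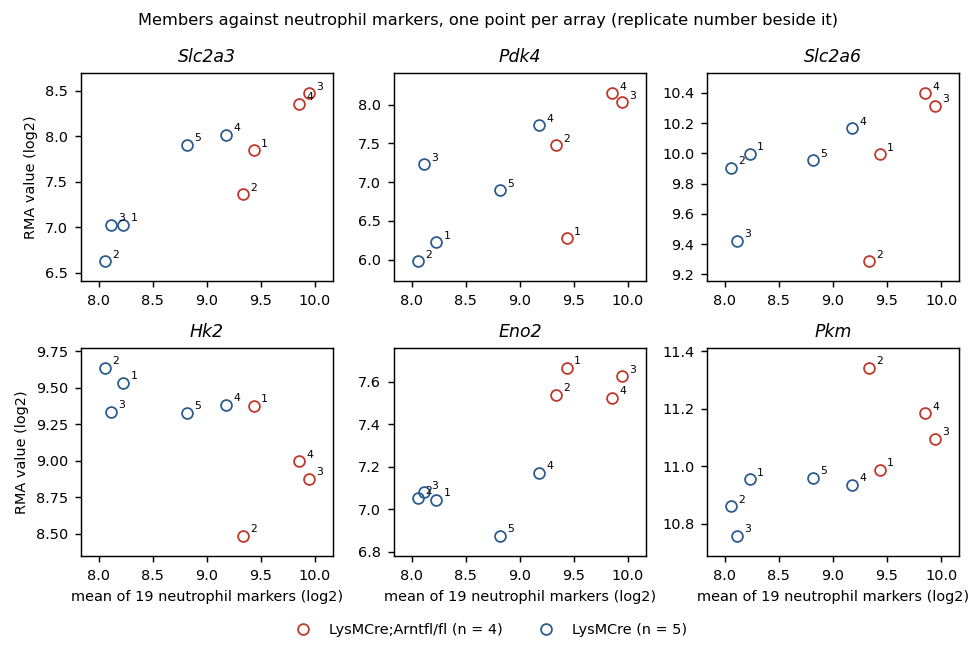
RMA values (log2, y axis) of 6 genes, chosen after their values were seen, against the mean of 19 neutrophil markers (log2, x axis), with LysMCre;Arntfl/fl arrays (n = 4) in red, LysMCre arrays (n = 5) in blue and the replicate number beside each point. The genotypes do not overlap on the x axis, Slc2a3 is higher in the arrays with more marker signal within LysMCre too, and Eno2 forms one group per genotype.

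Genes of the same pathways outside the 40 had no call either. Of 44 such genes 37 were measured, 0 were called in either direction by limma, and the median log2 fold change was 0.03. At an unadjusted p below 0.05, 3 were higher (8.11%, against 5.72% of all probe sets) and 2 lower (5.41%, against 5.79%), which are smaller shares than the 13.9% in each direction among the 36 genes; the difference was not tested. Slc16a7, which encodes the pyruvate transporter MCT2, had 7.36, 7.10, 7.37 and 7.37 in LysMCre;Arntfl/fl and 8.14, 8.03, 7.82, 7.37 and 7.87 in LysMCre. The groups did not overlap, though LysMCre replicate 4 nearly touched the other genotype (log2 fold change -0.55, 95% interval -0.87 to -0.23, adjusted p = 0.144). Prps2, which makes the ribose donor of nucleotide synthesis from the product of the pentose phosphate pathway, had 6.72, 6.65, 6.80 and 6.43 in LysMCre;Arntfl/fl and 6.89, 7.11, 7.16, 6.97 and 7.55 in LysMCre. It too did not overlap (log2 fold change -0.49, 95% interval -0.79 to -0.18, adjusted p = 0.169). Pygl, glycogen phosphorylase, was the only one beyond 1.5-fold, with 8.57, 9.02, 9.21 and 9.22 in LysMCre;Arntfl/fl and 8.33, 7.97, 7.43, 8.89 and 8.57 in LysMCre, which overlapped (log2 fold change 0.77, 95% interval 0.19 to 1.35, adjusted p = 0.264, 1.71-fold).

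Neighbouring gene groups were set beside them. Of 30 genes of the citric acid cycle and the respiratory chain, 27 were measured, 0 were called by limma, 0 were higher and 1 lower (3.7%) at an unadjusted p below 0.05, and the median was -0.03. Of 22 HIF targets outside glycolysis, 18 were measured and 0 were called by limma, with 2 higher (11.1%, against 5.72% of all probe sets) and 6 lower (33.3%, against 5.79%) at an unadjusted p below 0.05, and 12 of the 18 had a negative log2 fold change (66.7%, against 48.2% of all probe sets) with a median of -0.11. The gene farthest from 0 in that list, named after its values were seen, was the arginase gene Arg1 (log2 fold change 1.67, 95% interval 0.55 to 2.79, adjusted p = 0.204), whose arrays did not overlap. Arg1 had 9.67, 12.66, 9.91 and 10.51 in LysMCre;Arntfl/fl, so replicate 2 lay far above the others. The other higher gene was Kdm3a (0.25), also without overlap. The 6 lower genes were Vegfa, Ddit4, Ndrg1, P4ha1, Mxi1 and Bhlhe40, and Ddit4, P4ha1 and Bhlhe40 had no overlap. Of the 18 genes, 2 were thus higher and 3 lower without overlap, against 2.52% and 2.22% of all probe sets. P4ha1 had the smallest adjusted p of the list (log2 fold change -0.44, adjusted p = 0.0701). The median size of the log2 fold change, without its sign, was 0.21 in the HIF targets, 0.13 in the 36 genes, 0.11 in the other pathway genes and 0.10 over all probe sets. The lists were not tested against each other.

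**Figure D5:**
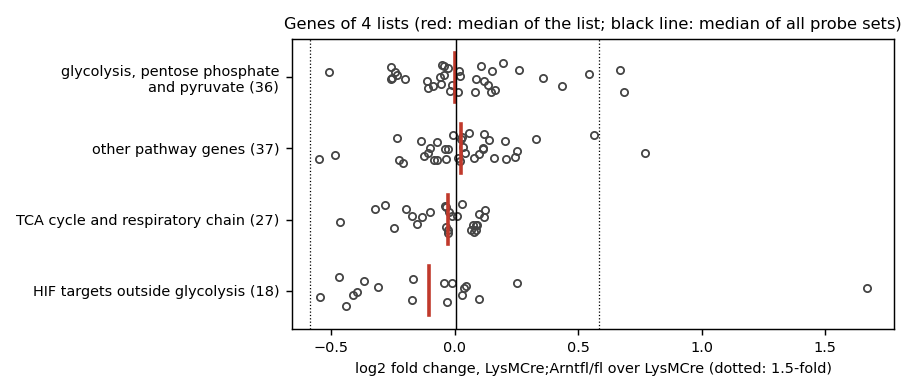
Log2 fold change of LysMCre;Arntfl/fl (n = 4) over LysMCre (n = 5) for each measured gene of 4 lists (1 point per gene), with the median of each list in red, the median of all probe sets as a black line and 1.5-fold as dotted lines. The median of the 36 genes lies at 0.00, and that of the HIF targets outside glycolysis at -0.11.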

How the data were processed

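Macrophages of 9 mice were profiled with 1 array each. The authors extracted RNA with TRIzol LS, amplified 1.5 ng, hybridized it to Affymetrix mouse gene 2.0 arrays, summarized the arrays with RMA and analysed them in Partek (version 6.6 per the submitters' processing notes) with SAM. The deposited values are on the log2 scale, between 2.26 and 14.27, with array medians of 5.98 to 6.04. The release of the annotation is not given in the sources used here. Of 34365 probe sets, 23521 carried 1 symbol, 1820 several and 9024 none.

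The genotypes were compared with limma 3.58.1 in R 4.3.3 (lmFit, eBayes), as LysMCre;Arntfl/fl minus LysMCre, with p-values adjusted after Benjamini and Hochberg over the 34365 probe sets, no filter on dim probe sets and no covariate. Every adjusted p comes from this fit unless another is named. The script was tested on simulated data. SAM was run as an alternative, as a d score with 100 permutations of the labels. So was the unpaired t-test, which the paper names for single comparisons, while it names SAM for the arrays. The members, lists and alternatives were chosen with earlier results of these data known, and the epithelial covariate after the files were seen. Values per array are given for members at an unadjusted p below 0.05, beyond 1.5-fold or without overlap, for 9 core members, of which 1 is not reported here, and for other pathway genes that were called, beyond 1.5-fold, or both below 0.05 and without overlap. Promoters were searched in RefSeq windows. Precision is limited by the number of arrays.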

Additional observations from a re-analysis of the deposited data

Results flagged for a closer look

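In 3 of 72 groups (36 genes in 2 genotypes), 1 array stood apart from the others of its genotype, by the size of its gap to the nearest array relative to the range of the group. Chance alone would flag about 1 group in 20. Gapdh was highest in LysMCre;Arntfl/fl replicate 2, at 12.50, with the next array at 12.32. Pfkl was highest in LysMCre replicate 4, at 8.01, with the next array at 7.64. Pfkfb4 was lowest in LysMCre replicate 5, at 6.62, with the next array at 6.74.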

How the results depend on the processing

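No alternative called any of the 36 genes except the rule without a fold threshold, which called 1 (Eno2) higher. The count with a negative log2 fold change was 16 to 23 over the alternatives and 15 to 20 over the fits without 1 array, and the median was -0.02 to 0.03 without 1 array. The fit on the brighter probe sets held only 33 of the 36 genes, and 16 of those 33 had a negative value. With the mean of neutrophil markers as a covariate the median was -0.19. Arnt lost its call with that covariate (-0.60), with the replicate block (-0.68) and with the unpaired t-test (-0.66), and kept it with the SAM-type score. Without 1 array it was -0.70 to -0.62. It lost its call in 5 of 9 such fits (without LysMCre;Arntfl/fl replicate 2, 3 or 4, or LysMCre replicate 3 or 5), where the highest adjusted p was 0.0883. Signs turned with the neutrophil covariate for Slc2a3 (-0.80), Pdk4 (-0.79), Slc2a6 (-0.59), Slc16a3 (-0.55), Pgk1 (-0.37), Mpc1 (-0.30), Taldo1 (-0.24), Pfkfb3 (-0.19), Pgls (-0.0893), Gapdh (-0.00267), Pfkp (0.0201), Pdk2 (0.0926), Hk1 (0.0991), Hk3 (0.15) and Eno3 (0.29). They also turned with array weights for Hk1 (0.00988), Pgk1 (-0.00546) and Pdk1 (-0.00665), with a further quantile normalization for Ldha (0.00669), with the mean of all probe sets for Pgam1 (0.0116) and Pgls (-0.0504), and with the replicate block for Pgam1 (0.0141). The cause was not tested.

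Without 1 array the log2 fold change crossed 0 for Eno3 (-0.0817 to 0.0411), Gapdh (-0.0285 to 0.0404), Hk1 (-0.0712 to 0.0508), Hk3 (-0.0726 to 0.00903), Ldha (-0.0436 to 0.0432), Mpc1 (-0.0207 to 0.20), Pdk1 (-0.0235 to 0.0806), Pdk2 (-0.0983 to 0.0121), Pgam1 (-0.13 to 0.0141), Pgk1 (-0.0783 to 0.11), Slc16a1 (-0.15 to 0.0360) and Slc2a6 (-0.0245 to 0.35). Arrays were not paired by their replicate numbers, since same-numbered arrays correlated at -0.120, -0.0715, -0.000463 and 0.166 after removal of the genotype means. Under the replicate block, which also drops LysMCre replicate 5, 3 probe sets were called higher and 2 lower, against 0 and 1 for the same 8 arrays without the block and 49 and 52 with all 9 arrays, and Eno2 had an adjusted p of 0.195. Over all probe sets, calls numbered 74 and 77 with the SAM-type score, 1 and 3 with the t-test, 98 and 106 among the brighter probe sets, 87 and 80 with array weights and 0 and 0 with the neutrophil covariate, and 0 to 74 higher and 1 to 75 lower without 1 array. Arrays give no read depth. Pfkm and Fbp1 lay below the median of every array, so their values rest on a dim signal. The standard errors were largest for Pdk4 (0.43) and Slc2a3 (0.31).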
